A study of Mus musculus with 24 samples.

Results

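The cerebellar and hindbrain marker genes followed here are 10 genes that were chosen by name: Gabra6, Pcp2, Cbln1, En2, Slc1a6, Zic1, Zic2, Pax6, Neurod1 and Barhl1. Every probe set whose single gene symbol was one of these names was taken, which gave 22 of the 34958 probe sets with 1 symbol and 10 of the 18194 genes that those probe sets name. The data are log2 signals of cochlear RNA on 24 Affymetrix whole-genome mouse arrays, with 3 arrays in each of 8 groups. The groups were α9−/− mice, which lack the chrna9 gene constitutively, and wild type mice, each at P3, P7, P13 and P60, where P is the postnatal day. All mice were of the hybrid strain 129S6 x CBA/CaJ backcrossed to CBA/CaJ, and each array carried the RNA of cochleae pooled from several animals, so the pool was the replicate. According to the methods, pieces of cerebellum, the semicircular canals and the auditory nerve were taken off each cochlea before freezing. The study asked what the loss of the α9 nicotinic receptor subunit changes in the cochlea while efferent synapses form and mature.

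The cerebellum lies next to the temporal bone that houses the cochlea. Its granule cells, the small excitatory neurons that make up most of its cells, complete their differentiation after birth and then switch on receptor and synapse genes such as Gabra6 and Cbln1. Its Purkinje cells, the large inhibitory output neurons of the cerebellar cortex, express Pcp2 and Slc1a6. En2, Zic1, Zic2 and Pax6 encode transcription factors that pattern the hindbrain or act in granule cells and their precursors. Neurod1 and Barhl1 are transcription factor genes of the cerebellar granule lineage that the inner ear also uses, Neurod1 in developing spiral ganglion neurons and Barhl1 in hair cells. In bulk RNA of a pool, fewer cells of a type and less RNA per cell cannot be told apart.

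The stretches around 4 gene starts are shown for Gabra6, for both Purkinje cell members and for Barhl1, a member that did not follow Gabra6. They are from RefSeq on GRCm38.p6, each with 250 bases before and 50 bases from the start on, in the direction of transcription: Gabra6 at chr11:42321023-42321322 on the minus strand, Pcp2 at chr8:3625498-3625797 on the minus strand, Slc1a6 at chr10:78780246-78780545 on the plus strand and Barhl1 at chr2:28916619-28916918 on the minus strand. Capitals mark a match, on either strand, to the E-boxes CAGATG or CAGCTG, the ROR core AGGTCA, the ZIC sequence CAGCAGG or the NFI core TTGGC.
Gabra6: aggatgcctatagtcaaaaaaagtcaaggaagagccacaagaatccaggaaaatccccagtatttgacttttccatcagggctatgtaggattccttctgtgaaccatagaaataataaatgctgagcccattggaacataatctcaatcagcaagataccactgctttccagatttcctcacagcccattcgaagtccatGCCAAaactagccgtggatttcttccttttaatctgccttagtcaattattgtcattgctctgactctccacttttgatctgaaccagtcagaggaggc
Pcp2: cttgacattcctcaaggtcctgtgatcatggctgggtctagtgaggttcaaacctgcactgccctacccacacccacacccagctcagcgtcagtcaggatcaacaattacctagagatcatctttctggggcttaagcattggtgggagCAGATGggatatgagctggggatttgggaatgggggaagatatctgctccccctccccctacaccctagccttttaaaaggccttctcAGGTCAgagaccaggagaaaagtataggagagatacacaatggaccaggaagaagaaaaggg
Slc1a6: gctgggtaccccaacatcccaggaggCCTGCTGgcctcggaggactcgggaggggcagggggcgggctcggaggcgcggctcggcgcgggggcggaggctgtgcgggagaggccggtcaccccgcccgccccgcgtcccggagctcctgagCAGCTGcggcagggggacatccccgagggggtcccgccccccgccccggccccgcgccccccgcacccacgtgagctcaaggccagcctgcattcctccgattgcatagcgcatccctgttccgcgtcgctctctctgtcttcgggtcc
Barhl1: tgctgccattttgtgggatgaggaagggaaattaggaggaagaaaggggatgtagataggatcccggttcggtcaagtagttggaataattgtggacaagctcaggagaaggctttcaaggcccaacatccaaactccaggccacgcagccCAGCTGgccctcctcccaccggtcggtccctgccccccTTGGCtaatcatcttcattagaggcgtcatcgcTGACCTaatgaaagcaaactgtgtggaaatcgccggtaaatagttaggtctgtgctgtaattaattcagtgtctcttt
The table of promoters held 7 of the 10 genes, some with more than 1 start. Cbln1, En2 and Zic2 were not matched. Among the 7, CAGATG was found for Pcp2, CAGCTG for Slc1a6 and Barhl1, AGGTCA for Pcp2 and Barhl1, CAGCAGG for Slc1a6, and TTGGC for Gabra6, Zic1 and Barhl1. Of all 32851 promoters in the table, 17.2% held CAGATG, 16.3% CAGCTG, 16.3% AGGTCA, 10.5% CAGCAGG and 46.7% TTGGC. No motif searched was found for all of the matched members, and these matches describe the windows only.

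The arrays carried a clear cochlear signal. The 11 defining markers of the cochlea, such as Coch and Otos of the spiral ligament and Gjb2 of the supporting cells, had a mean log2 signal of 9.36 to 10.61 on every array. The deposited values ran from 2.35 to 15.0, with array medians from 6.49 to 6.89 that differed mainly between ages. Control probe sets split the arrays in 2 ways. On 5 arrays, the 3′ probe sets of Gapdh exceeded its 5′ probe sets by 6.30 to 7.69 log2 units, against -0.15 to 2.43 on the other 19. These were replicate 2 of α9−/− and replicate 1 of wild type at P3, replicates 1 and 2 of wild type at P13 and replicate 1 of wild type at P60. The spiked poly-A controls had a mean log2 signal of at least 8 on all 6 arrays of P60, on 4 arrays of P3, on 2 of P7 and on 2 of P13, and were below 8 on the others. At P13 the arrays with the controls were replicate 1 of both genotypes.

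Gabra6, the α6 subunit of the GABA-A receptor found mainly in cerebellar granule cells, had the widest swing of all members. At P3 its log2 signals were 3.93, 4.17 and 3.34 in α9−/− cochleae and 4.31, 3.63 and 3.75 in wild type cochleae. At P7 they were 3.72, 3.58 and 4.02 in α9−/− and 3.81, 4.04 and 3.82 in wild type. Through P7 all 12 arrays therefore lay within 1 log2 unit, near the low end of the scale. At P13 the signals were 4.09, 7.27 and 5.55 in α9−/− and 3.75, 9.41 and 8.95 in wild type. At P60 they were 12.18, 11.56 and 9.30 in α9−/− and 10.80, 7.05 and 10.65 in wild type. At P13 replicate 1 of either genotype stayed at the level of P7 while replicates 2 and 3 of wild type stood far above, and at P60 every pool was above every pool of P3 and P7. At this probe set the genotypes overlapped at all ages. A second Gabra6 probe set put the pools of P13 and P60 in a like order, with 3.78, 6.03 and 4.42 in α9−/− against 4.90, 7.90 and 7.53 in wild type at P13, and 10.88, 10.03 and 7.44 in α9−/− against 8.41, 4.99 and 7.99 in wild type at P60. At P3 its genotypes did not overlap, with 4.21, 4.63 and 4.05 in α9−/− against 3.41, 3.25 and 3.32 in wild type, near the low end of the scale.

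**Figure D1:**
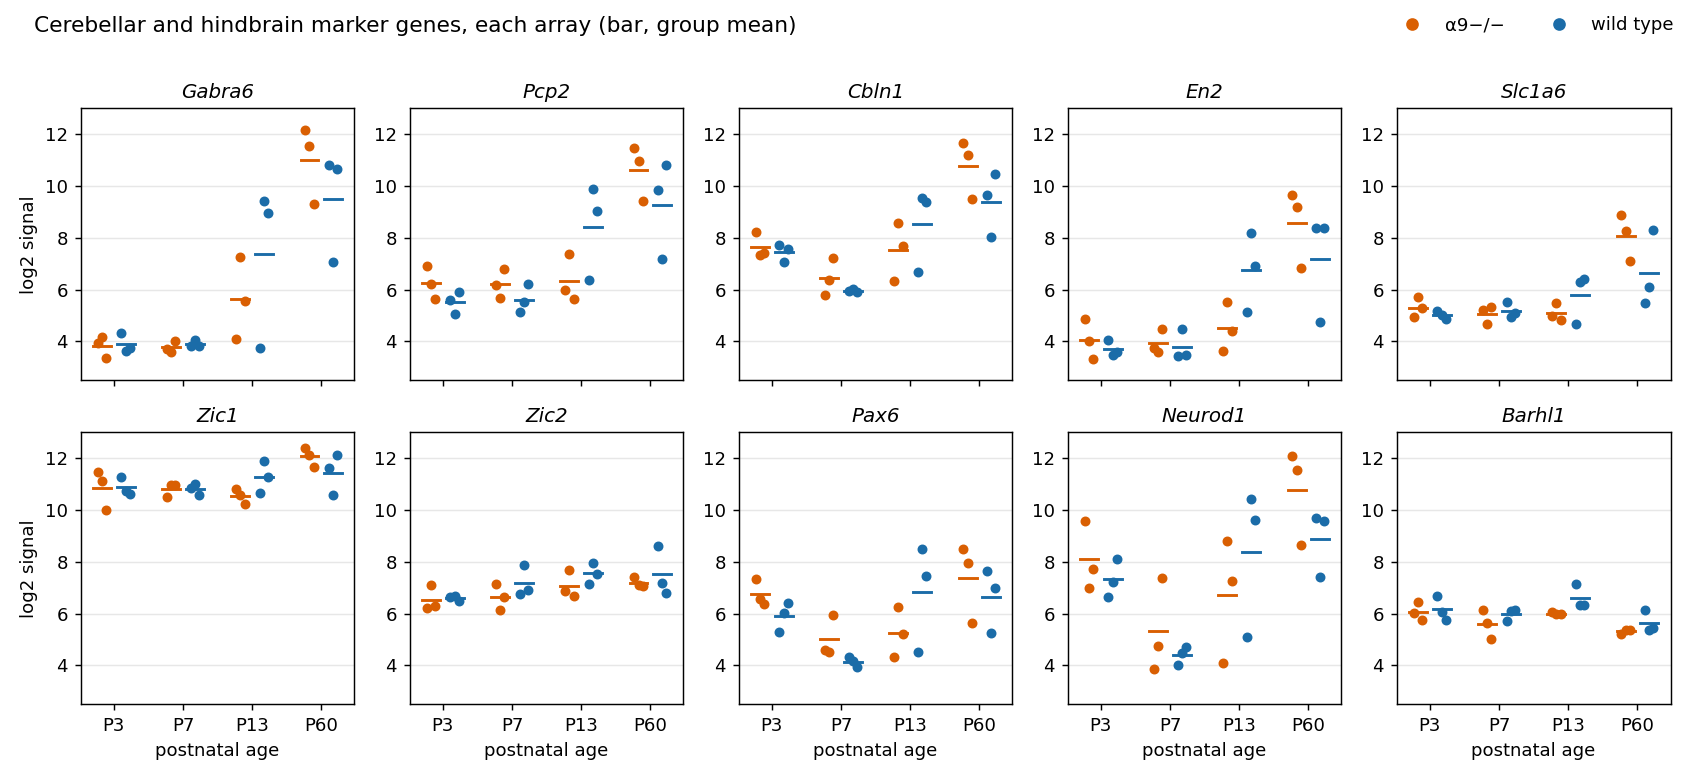
Log2 signal (vertical axis) of the brightest probe set of each of the 10 members on each of the 24 arrays, by postnatal age, with α9−/− pools in orange left of wild type pools in blue and bars at the group means (n = 3). Gabra6 lay between 3.34 and 4.31 on all arrays of P3 and P7 and between 7.05 and 12.18 at P60, whereas Barhl1 stayed between 5.01 and 7.14 throughout.

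The Purkinje cell members split the pools of P13 in a like way. Pcp2, a regulator of G-protein signalling found in Purkinje cells and retinal bipolar cells, gave 5.98, 7.36 and 5.64 in α9−/− and 6.37, 9.89 and 9.03 in wild type at P13. At P60 it gave 11.49, 10.98 and 9.41 in α9−/− and 9.83, 7.18 and 10.83 in wild type. Before P13 it ranged from 5.62 to 6.90 in α9−/− and from 5.07 to 6.20 in wild type, so the groups overlapped at every age. Slc1a6, the glutamate transporter EAAT4 of Purkinje cells, was flatter at P13, with 4.99, 5.49 and 4.81 in α9−/− and 4.68, 6.31 and 6.42 in wild type. At P60 its signals were 8.87, 8.26 and 7.11 in α9−/− and 5.50, 6.09 and 8.30 in wild type. Replicate 1 of wild type at P60 was the lowest P60 pool for Slc1a6 although it was the third highest for Gabra6. That array is 1 of the 5 with low Gapdh 5′ signal. The part of this control in the difference was not tested.

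Cbln1 and En2 were high in the same pools as Gabra6 at P13 and P60, and Cbln1 also had signal at P3. Cbln1, a protein that granule cells secrete and that joins their axons to Purkinje cells, was well above the low end of the scale already at P3, with 8.21, 7.32 and 7.43 in α9−/− and 7.71, 7.06 and 7.55 in wild type. By P7 it was at 5.81, 6.37 and 7.21 in α9−/− and 5.96, 6.02 and 5.89 in wild type. At P13 it gave 6.33, 8.59 and 7.69 in α9−/− and 6.67, 9.52 and 9.37 in wild type, and at P60 it gave 11.68, 11.18 and 9.48 in α9−/− and 9.64, 8.01 and 10.46 in wild type. The same pools were high and low as for Gabra6. En2, a homeobox gene that marks the midbrain-hindbrain region, gave 3.62, 5.50 and 4.41 in α9−/− and 5.13, 8.20 and 6.92 in wild type at P13. At P60 En2 gave 9.66, 9.17 and 6.83 in α9−/− and 8.39, 4.73 and 8.39 in wild type. Replicate 2 of wild type at P60 thus lay below replicate 1 of α9−/− at P3 (4.88) and above the other 5 arrays of P3, which ranged from 3.30 to 4.06.

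The ZIC zinc finger genes behaved apart from each other. Zic1, which is also made in tissues outside the brain such as the meninges, was bright on every array, from 10.02 to 12.40 in α9−/− and from 10.58 to 12.12 in wild type. At P60 it gave 12.40, 12.13 and 11.68 in α9−/− and 11.63, 10.58 and 12.12 in wild type, with the lowest pool the same as for Gabra6. Zic2 moved over a narrow range, from 6.15 to 7.70 in α9−/− and from 6.49 to 8.60 in wild type. Its highest signal at P60 was 8.60 in replicate 1 of wild type, while replicate 1 of α9−/−, which was the brightest P60 pool for Gabra6, had 7.42. For Zic2 the highest array at P3 (7.09, α9−/− replicate 2), at P13 (7.97, wild type replicate 2) and at P60 was each an array with low Gapdh 5′ signal, whose part in this was not tested.

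Pax6, a paired-box factor of granule cell precursors and granule cells, and Neurod1, a basic helix-loop-helix factor of many differentiating neurons, had signal at P3, were lower on most arrays of P7 and were high again in single pools later. Neurod1 gave 9.59, 6.97 and 7.74 in α9−/− and 6.63, 7.22 and 8.11 in wild type at P3. It gave 3.86, 4.75 and 7.39 in α9−/− and 4.01, 4.46 and 4.72 in wild type at P7. At P13 it gave 4.09, 8.81 and 7.26 in α9−/− and 5.09, 10.42 and 9.63 in wild type. From that age on the order of the pools was close to that of Gabra6, and at P60 Neurod1 gave 12.10, 11.55 and 8.63 in α9−/− and 9.68, 7.42 and 9.60 in wild type. Pax6 ran in parallel at lower signals, with 8.49, 7.95 and 5.65 in α9−/− and 7.64, 5.27 and 7.00 in wild type at P60. Of the 5 Pax6 probe sets, 3 were too even to pass the variance filter and lay between 3.25 and 6.37 on all arrays.

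Barhl1, the homeobox gene of hair cells and granule cell precursors, did not follow Gabra6. Its brightest probe set gave 6.05, 5.98 and 5.97 in α9−/− and 7.14, 6.34 and 6.35 in wild type at P13. At P60 the signals were 5.21, 5.35 and 5.37 in α9−/− and 6.14, 5.38 and 5.43 in wild type. The highest array was replicate 1 of wild type at P3 (6.70), at P13 and at P60, each with low Gapdh 5′ signal. A second Barhl1 probe set differed from the first at P13, where its highest arrays were replicates 2 and 3 of wild type (5.41 and 4.93), while α9−/− ranged from 3.60 to 3.99.

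Single pools also stood out before P13, without Gabra6. At P3 replicate 1 of α9−/− had the highest signal of its age for Pcp2 (6.90), Cbln1 (8.21), Zic1 (11.47), En2 (4.88), Pax6 (7.32) and Neurod1 (9.59), while its Gabra6 signal of 3.93 was ordinary. At P7 replicate 3 of α9−/− was the highest for Pcp2 (6.79), Cbln1 (7.21), En2 (4.47), Pax6 (5.94) and Neurod1 (7.39), with Gabra6 at 4.02. Neither array had low Gapdh 5′ signal. The deviation of each array from the mean of its age summarizes these movements over the 8 members other than Neurod1 and Barhl1. At P13 this mean deviation was -1.28, 0.19 and -0.88 log2 units in α9−/− and -1.04, 1.80 and 1.21 in wild type. At P60 it was 1.32, 0.84 and -0.64 in α9−/− and 0.05, -1.94 and 0.37 in wild type. Replicates 2 and 3 of wild type at P13 and replicate 1 of α9−/− at P60 were above the mean of their age for all 8 members.

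**Figure D2:**
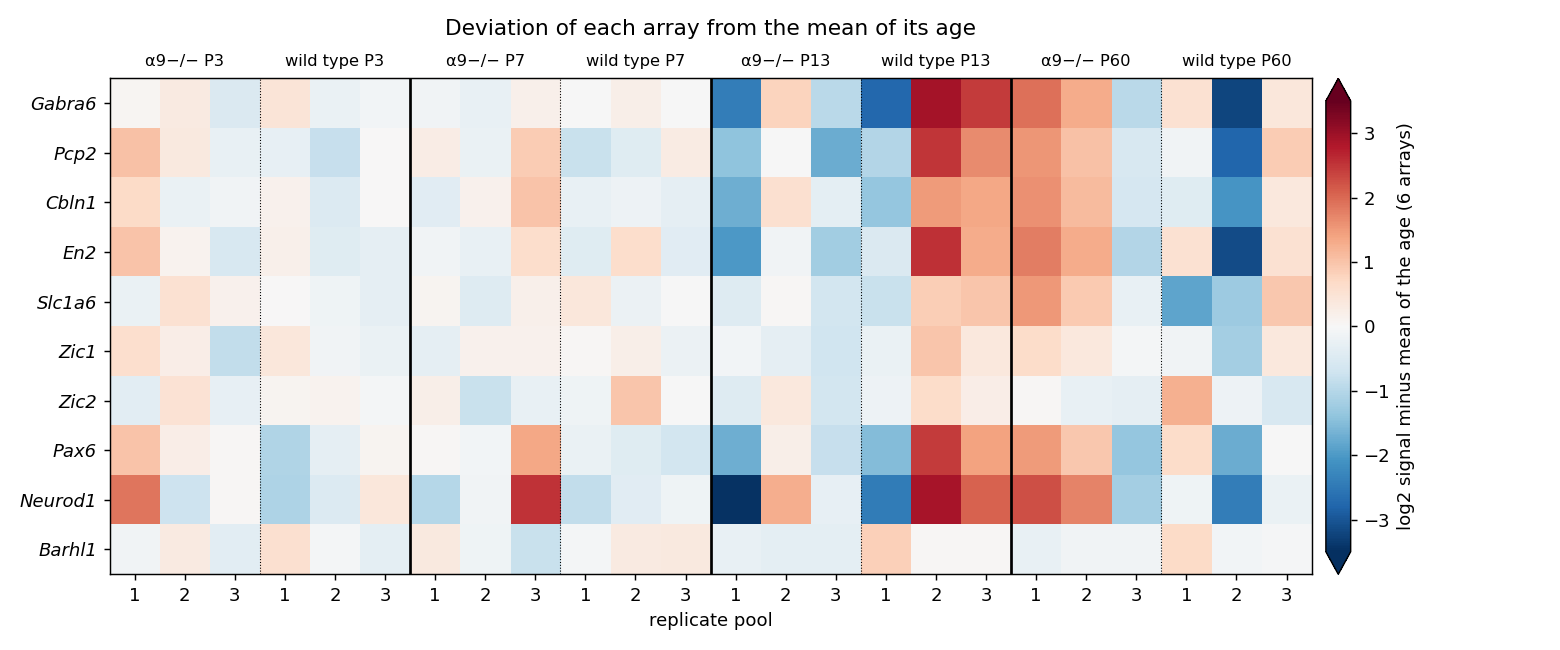
Colour gives the log2 signal of each member (rows) minus the mean of the 6 arrays of the same age, for each pool (columns, α9−/− left of wild type within an age). Whole columns are red or blue at P13 and P60, as in replicate 2 of wild type, which averaged 1.80 above its age at P13 and -1.94 at P60 over 8 members, while the Zic2 and Barhl1 rows stay pale.

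How closely the members moved with Gabra6 was measured over 24 arrays centred on the mean of their age, with a permutation test within ages (100000 permutations, two-sided, adjusted over 9 members). Cbln1 was the closest (Pearson r = 0.92, Spearman rho = 0.80), followed by En2 (r = 0.90, rho = 0.89), Pcp2 (0.88, 0.80), Pax6 (0.87, 0.77) and Neurod1 (0.84, 0.67). For these 5 the permutation p of r ranged from 1e-05, the smallest that the permutations can give, to 0.0002, and the adjusted p from 9e-05 to 0.00036. Zic1 (r = 0.72, rho = 0.70, permutation p = 0.00092, adjusted p = 0.00138) and Slc1a6 (r = 0.68, rho = 0.69, p = 0.00753, adjusted p = 0.00968) were looser. Zic2 did not pass for r (0.41, permutation p = 0.0819, adjusted p = 0.0922) although it did for rho (0.56, p = 0.0132, adjusted p = 0.0148), and Barhl1 did not pass for either (r = -0.07, permutation p = 0.807; rho = 0.16, p = 0.473). Without the 2 arrays farthest from the median of Gabra6, which were replicate 2 of wild type at P13 and at P60, r was 0.88 for Cbln1, 0.82 for En2, 0.79 for Pcp2, 0.81 for Pax6, 0.79 for Neurod1, 0.53 for Zic1 and 0.59 for Slc1a6.

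The relation rested on the later ages. Within P13 alone (6 arrays) r with Gabra6 was 0.99 for Cbln1, 0.98 for Pax6, 0.97 for Neurod1, 0.95 for Slc1a6 and 0.91 for Pcp2, and within P60 it was 0.95, 0.95, 0.94, 0.62 and 0.97 for the same genes. All arrays of P60 carried the poly-A controls, so at that age the relation held among arrays alike in this control. At P13 the 4 arrays without the controls had Gabra6 signals of 5.55 to 9.41 and the 2 with them had 3.75 to 4.09, and too few arrays were left on either side for a correlation. Over the 12 arrays of P3 and P7, where Gabra6 hardly varied, r was -0.05 for Pax6 and 0.01 for Neurod1, with an adjusted permutation p of 0.986 for both. It was 0.64 for En2 and 0.77 for Zic1, which did not pass either (adjusted permutation p = 0.169 and 0.159). The 5 arrays with low Gapdh 5′ signal spanned 3.75 to 10.80 in Gabra6 and the other 19 spanned 3.34 to 12.18.

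**Figure D3:**
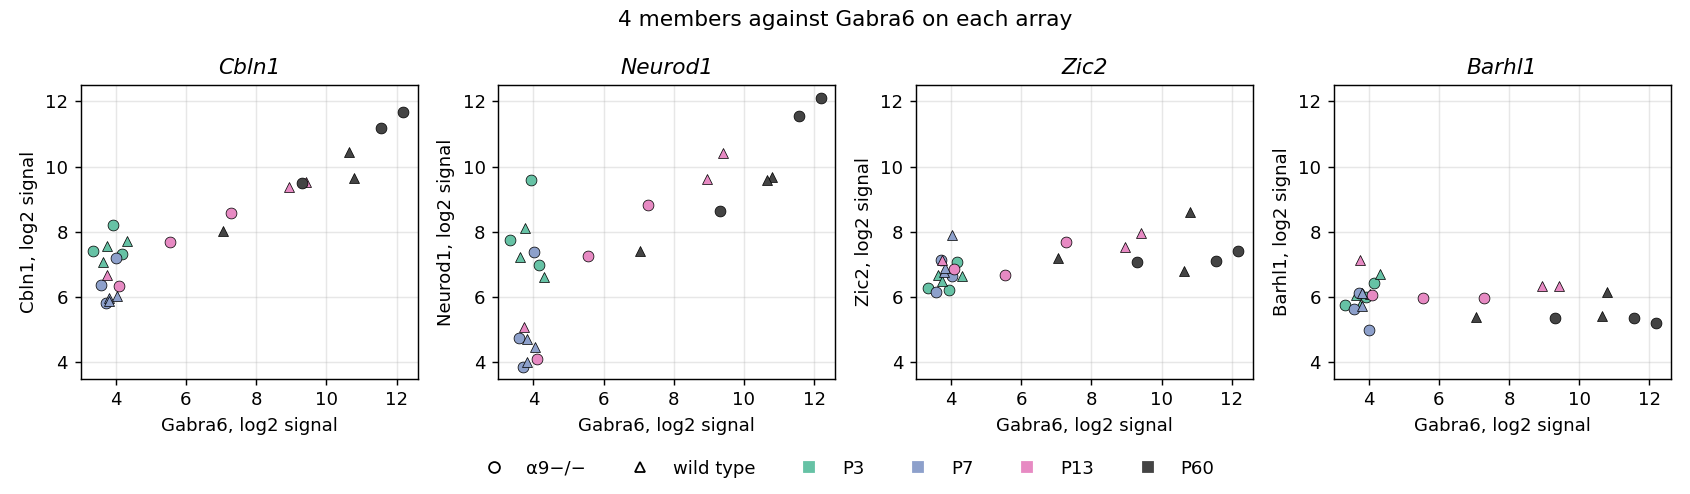
Log2 signal of Cbln1, Neurod1, Zic2 and Barhl1 (vertical axes) against that of Gabra6 (horizontal axes) on each array, with colours for ages, circles for α9−/− and triangles for wild type. Cbln1 and Neurod1 rise with Gabra6 at P13 and P60, Neurod1 spans 3.86 to 9.59 at P3 and P7 where Gabra6 is at 3.34 to 4.31, and Barhl1 runs flat.

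Most members had higher signals in the pools of P60 than before. Whether this RNA came from the cochlea or from cerebellum left on it was not tested. Gabra6 averaged 3.86 ± 0.36 at P3, 3.83 ± 0.18 at P7, 6.50 ± 2.42 at P13 and 10.26 ± 1.85 at P60 (mean ± SD of log2 signals over 6 pools of both genotypes). Pcp2 averaged 5.89 ± 0.63, 5.91 ± 0.60, 7.38 ± 1.73 and 9.95 ± 1.56 in the same order, and En2 3.88 ± 0.57, 3.86 ± 0.48, 5.63 ± 1.68 and 7.86 ± 1.81. Ages were compared with limma on values quantile-normalized over all arrays, with both genotypes averaged, and a probe set was called at a Benjamini-Hochberg adjusted p under 0.05 with an absolute log2 difference of at least 1.5. From P3 to P60, 11 of the 22 probe sets were called higher, of Cbln1, En2, Gabra6, Neurod1, Pcp2, Slc1a6 and Zic1, where 7.02% of all 18041 probe sets tested were called higher. None was called lower, where 3.54% of all were. Neurod1 and Zic1 were called only at a second probe set. Their brightest probe sets gave 2.13 ± 0.92 (limma adjusted p = 0.0753) and 0.94 ± 0.29 (adjusted p = 0.0133, short of the fold threshold). The median difference of the 22 was 1.71, against -0.05 over all probe sets. Gabra6 rose by 6.40 ± 0.82 (SE) log2 units (limma, adjusted p = 2.95e-06), Pcp2 by 4.04 ± 0.59 (adjusted p = 1.37e-05) and En2 by 3.96 ± 0.63. At 5 of the 22 probe sets, of Gabra6, Pcp2 and Barhl1, no pool of P60 overlapped with a pool of P3. The second Barhl1 probe set was the lower one at P60 (-1.16 ± 0.22, limma adjusted p = 0.000218, short of the fold threshold). The share of all probe sets without overlap was not counted.

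The rise was uneven in time. From P3 to P7, 2 probe sets were called lower, 1 each of Cbln1 (-2.86 ± 0.65) and Neurod1 (-2.98 ± 0.92, limma adjusted p = 0.0401), where 1.65% of all probe sets were, and 0 were called higher, where 0.765% of all were. At Pax6 the same step was -1.88 ± 0.61, which did not pass (adjusted p = 0.0506). From P7 to P13, 3 probe sets of Cbln1 and Gabra6 were called higher, where 3.25% of all were, and 0 lower, where 1.42% of all were, with Gabra6 at 2.45 ± 0.82 (adjusted p = 0.0288). From P13 to P60, 12 probe sets were called higher, of the same 7 genes as from P3 to P60, where 3.99% of all were, and 0 lower, where 3.27% of all were. Zic1 was again called only at its second probe set. Barhl1 was -0.68 ± 0.21 from P3 to P60 (adjusted p = 0.024 in the fit over all probe sets, short of the fold threshold), and Zic2 was 0.72 ± 0.31 (adjusted p = 0.0734). The counts of calls depended on the arrays used. With wild type alone 0 probe sets were called from P13 to P60, where 7.54% of all were called in either direction, and 4 higher from P3 to P60, where 7.64% of all were called higher. With α9−/− alone 0 were called from P7 to P13, where 2.51% of all were. Without replicate 1 of each group 8 were called higher from P7 to P13, where 4.93% of all were, and 2 higher from P13 to P60, where 3.86% of all were. Without replicate 2 or without replicate 3 of each group 0 were called from P3 to P7, where 0.948% and 1.31% of all were, and 0 from P7 to P13, where 3.44% and 4% of all were.

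No member was called between the genotypes at any age in the fit within the age, although at P13 up to 7 probe sets were called under other settings. Knockout and wild type were compared with limma within each age at the same thresholds, among the 40% of probe sets that varied most, which held 18 of the 22. The other 4 took their p from a fit of all probe sets. Of the 22, 0 were called at P3, at P7, at P13 and at P60, where 0%, 0.0111%, 7.06% and 0% of the probe sets tested were called. At an unadjusted p under 0.05 the 22 held 1 probe set at P3, 1 at P7, 6 at P13 and 1 at P60, where 1.75%, 1.48%, 37.3% and 6.1% of those tested did. The number of arrays limits these tests, and the intervals were wide.

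At P13 all 22 probe sets had a lower mean in α9−/− than in wild type, with a median difference of -1.04 and a range of -2.24 to -0.01, against a median of -0.16 over all probe sets. En2 averaged 4.51 ± 0.94 in α9−/− and 6.75 ± 1.54 in wild type (SD, n = 3 each), a difference of -2.24 ± 0.79 (SE, limma adjusted p = 0.087). Pcp2 averaged 6.33 ± 0.91 in α9−/− and 8.43 ± 1.84 in wild type (difference -2.10 ± 0.89, adjusted p = 0.129). For Gabra6 the means were 5.64 ± 1.59 in α9−/− and 7.37 ± 3.15 in wild type (difference -1.73 ± 1.49, 95% interval -5.20 to 1.74, adjusted p = 0.408). The spread within wild type exceeded the difference for Gabra6, with replicate 1 low and replicates 2 and 3 high. Without replicate 1 of wild type the Gabra6 difference was -3.54 (limma adjusted p = 0.0457), and 6 of the 18 probe sets tested were called lower, of Gabra6, Pcp2, En2 and Pax6, where 0.554% of all probe sets were called lower and 5.09% in either direction. With the poly-A controls as a term in the fit, 5 of the 18 were called lower, of En2 (adjusted p = 0.0253), Cbln1, Gabra6 and Neurod1, where 0.715% of all were. With weights for the arrays, 7 of the 18 were called lower, where 1.77% of all were. Over replicates 2 and 3, which lacked the poly-A controls, 2 were called lower, both of Pcp2, where 0.754% of all were. In the fit without these changes, 0 of the 18 were called lower, where 0.565% of all were. With any single array other than replicate 1 of wild type left out, 0 were called lower, where 0.0277% to 1.11% of all were. The P13 arrays with low Gapdh 5′ signal were both of wild type, replicates 1 and 2. Leaving both out keeps 1 wild type array, so the part of this control was not tested. In replicate 1, the pair of arrays with the poly-A controls, Gabra6 was 4.09 in α9−/− and 3.75 in wild type, with no replicate for a test.

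At P60 the direction was turned for most members: 19 of the 22 probe sets had a higher mean in α9−/− and the median difference was 1.25, against -0.08 over all probe sets. Neurod1 averaged 10.76 ± 1.86 in α9−/− and 8.90 ± 1.28 in wild type (difference 1.86 ± 0.94, limma adjusted p = 0.776). Gabra6 averaged 11.02 ± 1.52 in α9−/− and 9.50 ± 2.13 in wild type (difference 1.52 ± 1.06, 95% interval -0.90 to 3.93, adjusted p = 0.794). Without replicate 2 of wild type the Gabra6 difference was 0.29 (adjusted p = 0.887). The lowest adjusted p of the 22 was 0.776, and 0 were called with any 1 array left out, where 0% to 0.00554% of all were. Zic2, the brightest Barhl1 probe set and 1 Pax6 probe set had lower means in α9−/−, with Barhl1 at 5.31 ± 0.09 in α9−/− and 5.65 ± 0.43 in wild type (difference -0.34 ± 0.27, adjusted p = 0.885 in the fit over all probe sets).

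**Figure D4:**
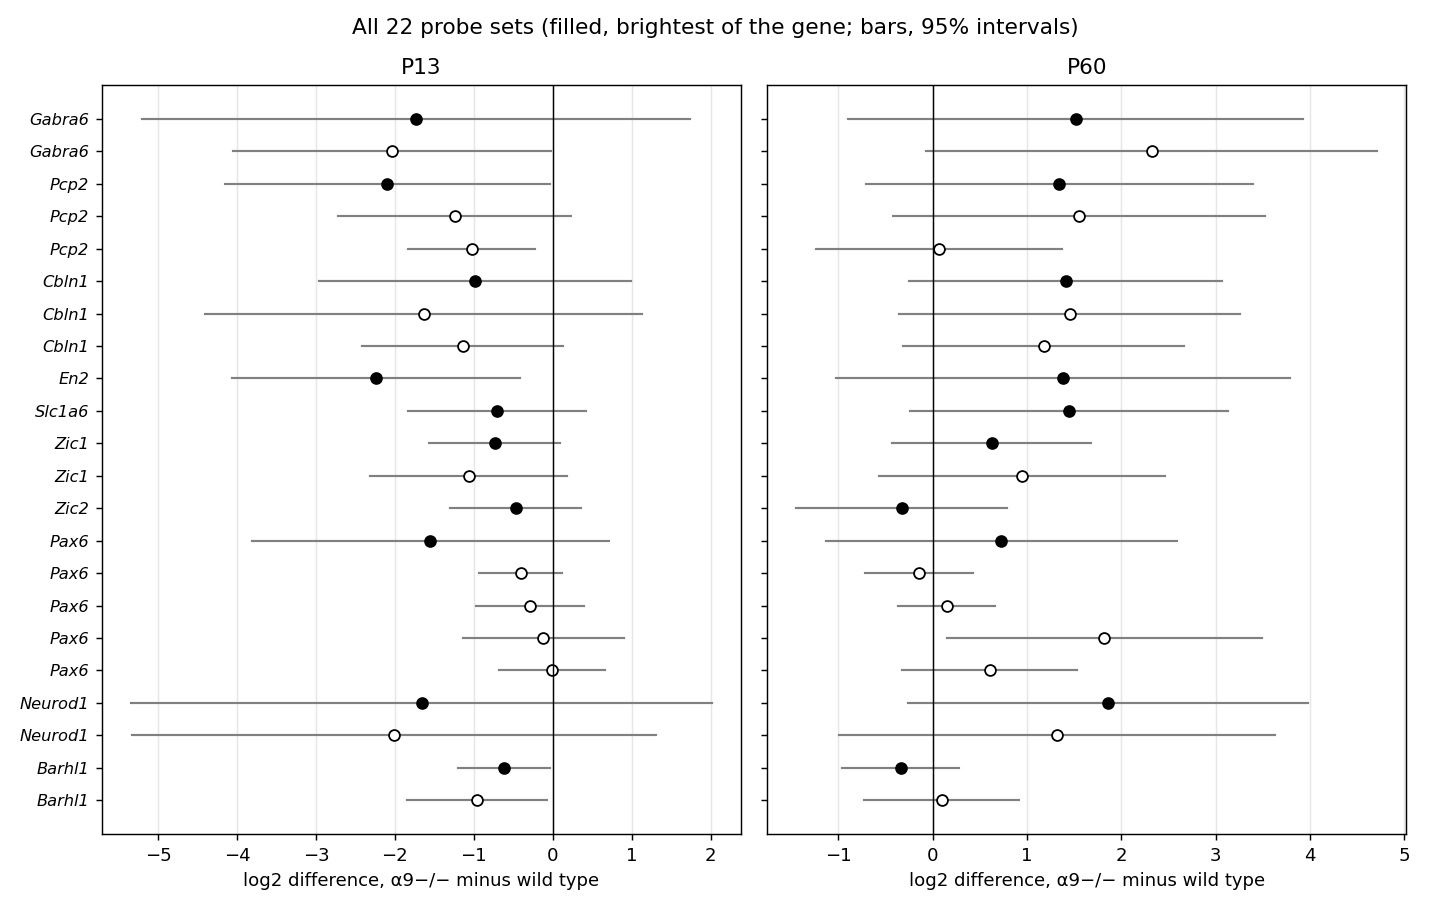
Log2 difference of α9−/− minus wild type at P13 (left panel) and P60 (right panel) for all 22 probe sets, with 95% intervals as bars and the brightest probe set of each gene filled. All 22 points are at or left of 0 at P13 and 19 are right of it at P60, and most intervals cross 0.

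At P3 and P7 the differences ran in both directions. The median difference of the 22 was 0.03 at P3 (range -0.33 to 0.97), with 12 probe sets higher in α9−/−, and 0.19 at P7 (range -0.55 to 1.33), with 14 higher, against 0.00 and 0.01 over all probe sets. The highest values were those of the second Gabra6 probe set at P3 (0.97) and of a second Cbln1 probe set at P7, which averaged 5.72 in α9−/− and 4.39 in wild type. Their genotypes did not overlap, which held for 3 of the 22 probe sets at P3 and for 3 at P7. The share of all probe sets without overlap was not counted at these ages. Neither difference passed (limma adjusted p of 1.00 for both). The largest difference at the brightest probe set of a gene was Neurod1 at P7, with 5.33 ± 1.83 in α9−/− and 4.40 ± 0.36 in wild type (difference 0.94 ± 0.81), where replicate 3 of α9−/− alone was above every wild type pool by more than 1 log2 unit. Whether the genotype difference itself changed with age was tested as an interaction over all 24 arrays. Against P13, the P60 difference was higher for 22 of the 22 probe sets with a median of 2.22, but 0 were called (lowest limma adjusted p 0.981, 12 at an unadjusted p under 0.05, where 0% of all probe sets were called and 4.63% had such a p). Against P3 and P7, 18 of the 22 were higher in each case, with medians of 0.81 and 0.75, and 0 were called, where 0% and 0.00554% of all were. These contrasts share the arrays of P60 with each other and with the comparisons above.

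As lists, other genes of the cerebellum moved along with the members, although single genes of these lists did not. Each gene was scored by its Pearson r, over the 24 age-centred arrays, with the mean of the 8 members other than Neurod1 and Barhl1, as a description, since the arrays share their RNA across genes. The median r was 0.69 for 15 other cerebellar granule cell genes, 0.65 for 13 other Purkinje cell genes, 0.66 for 12 GABA-A receptor subunits and GABA synthesis genes and 0.62 for 9 genes of Bergmann glia and astrocytes, against 0.04 over all 18184 other genes. It was lower for 8 forebrain neuron genes (0.30), 9 genes of central oligodendrocytes (0.27) and 7 of the choroid plexus (0.17). It was 0.00 for 10 hair cell genes, -0.01 for 11 brainstem and HOX-coded hindbrain genes, -0.09 for 11 spiral ganglion neuron genes and -0.13 for the 11 defining markers of the cochlea. The closest list genes were Car8 (0.92), a carbonic anhydrase-related protein of Purkinje cells, and Cbln3 (0.89), the partner of Cbln1 in granule cells. The lowest r was -0.14 among the other granule cell genes (Calb2) and 0.06 among the other Purkinje cell genes (Grid2ip). In the GABA list it was -0.18 (Slc32a1), and among Bergmann glia and astrocytes -0.03 (Gdf10).

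**Figure D5:**
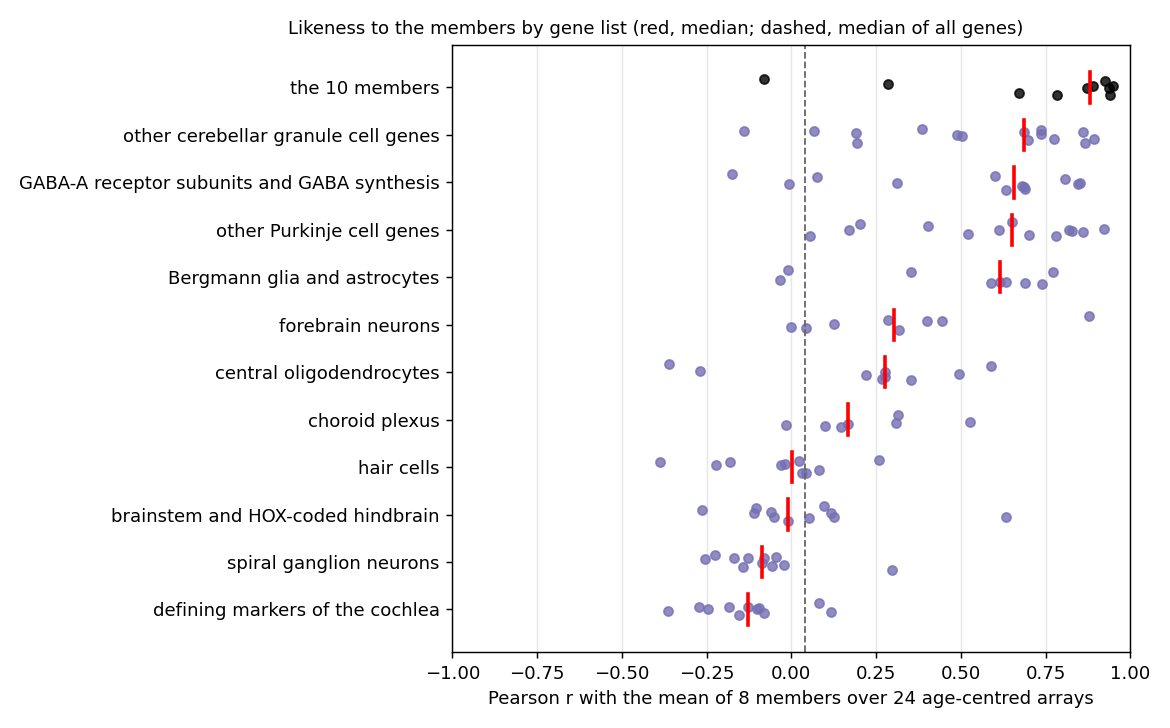
Pearson r of each gene with the mean of 8 members over 24 age-centred arrays (horizontal axis; for the members themselves, with the mean of the others) by gene list, with red bars at the list medians and a dashed line at the median of all genes (0.04). Granule cell, Purkinje cell, GABA and Bergmann glia lists have medians from 0.62 to 0.69, and the 4 lists at the bottom, of hair cells, brainstem, spiral ganglion and cochlea, have medians from -0.13 to 0.00.

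The 10 genes outside the members with the highest r were Cadps2 (0.95), St18 (0.95), Prdm8 (0.94), Gm2694 (0.93), Kcnd2 (0.93), C130071C03Rik (0.93), Fgf14 (0.93), Chl1 (0.92), Diras2 (0.92) and Car8 (0.92). Cadps2 acts in vesicle release, Kcnd2 is a potassium channel, Fgf14 a partner of sodium channels and Chl1 a cell adhesion molecule. In all, 16 genes had an r above 0.9.

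The mean log2 signals of the granule and Purkinje cell lists were high and low in nearly the same pools as the members, and those of other lists less closely. Other granule cell genes averaged 6.85, 7.30 and 7.10 in α9−/− and 6.94, 7.75 and 7.62 in wild type at P13, and 8.99, 8.59 and 7.89 in α9−/− and 7.90, 7.40 and 8.41 in wild type at P60. Other Purkinje cell genes averaged 7.03, 7.74 and 7.50 in α9−/− and 7.68, 8.45 and 8.10 in wild type at P13, where replicate 1 of wild type was not among the lowest. They averaged 9.58, 9.26 and 8.37 in α9−/− and 8.72, 7.80 and 9.08 in wild type at P60. Replicate 1 of α9−/− was the highest P60 pool and replicate 2 of wild type the lowest in both lists, as for Gabra6. For the GABA list the highest pool of P13 was replicate 2 of α9−/− (6.17, against 6.16 in replicate 3 of wild type), and the lowest of P60 was replicate 3 of α9−/− (5.68, against 5.80 in replicate 2 of wild type). For Bergmann glia and astrocytes the highest pool of P13 was likewise replicate 2 of α9−/− (9.84). The defining markers of the cochlea averaged 10.01, 10.21 and 10.12 in α9−/− and 10.43, 10.61 and 10.21 in wild type at P60, so the pool highest in the members was the lowest there and the pool lowest in the members was the highest. At P13 the cochlear markers gave 10.23, 10.47 and 10.49 in α9−/− and 9.88, 10.17 and 10.30 in wild type, in another order than the members. Central oligodendrocyte genes were low in replicate 1 of both genotypes at P13 (5.65, 8.04 and 7.85 in α9−/−, 5.70, 7.09 and 7.60 in wild type).

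Between genotypes, Calb2 alone was called among the list genes, at P13 (1.62 higher in α9−/−), where 7.06% of all probe sets tested were. Only list genes within the variance filter were tested for calls. Calb2 encodes the calcium-binding protein calretinin, which the cochlea also makes, and its r with the members was -0.14. At P13 12 of 15 other granule cell genes and 11 of 13 other Purkinje cell genes had a lower mean in α9−/− (medians -0.38 and -0.62), and at P60 13 and 11 had a higher one (medians 0.45 and 0.43). The brainstem and HOX-coded hindbrain list had a lower mean in α9−/− for 11 of 11 genes at P13 (median -0.35) and for 9 of 11 at P60 (median -0.18). By age, 6 of the 11 other granule cell genes tested were called higher at P60 than at P3, where 7.02% of all probe sets were. Among them were Cbln3 (5.34), Calb2 (2.78) and Gabrd (2.70), which encodes the δ subunit of the GABA-A receptor. Of the 10 other Purkinje cell genes tested 5 were called higher, with Ppp1r17 at 3.56, Lhx1 at 2.29, Car8 at 2.19 and Pvalb at 2.17. Of the 10 genes of the GABA list tested 4 were, with Gabrd, Gad1 (2.38), Gad2 (1.74) and Gabrb2 (1.70). From P3 to P7, 7 of these 10 were called lower, where 1.65% of all were. Lists of other cells also held such calls from P3 to P60. Of the 8 defining markers of the cochlea tested, 4 were called higher (Otos 4.11, Coch 3.95, Slc26a4 3.24 and Gjb6 1.97). Another 2 were called lower (Tectb -5.14 and Tecta -3.78), where 3.54% of all probe sets were. Of 9 central oligodendrocyte genes 3 were called higher, among them Mobp (3.74) and Ermn (2.87). Of the 4 hair cell genes and 7 spiral ganglion neuron genes tested 0 were called from P3 to P60, where 7.02% of all were called higher. From P13 to P60, 3 spiral ganglion neuron genes were called higher (Prph 2.19, Sncg 1.76 and Pou4f1 1.69), where 3.99% of all were.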

How the data were processed

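The deposited log2 values of 24 arrays were made by the authors, who corrected the background with RMA, quantile-normalized the arrays and combined the probes of a set by Tukey biweight, as the methods state. The submitters' processing notes name RMA and limma. Quantile normalization puts arrays on one distribution, so a signal is relative to the other probe sets of its array. Groups came from the labels. The members, lists, tests and alternatives were chosen with earlier results of these data known, and the members' rule is their names. Probe sets were named through the platform annotation: of 45101, 34958 had 1 symbol, 932 several and 9211 none. A gene was represented by its brightest probe set. Genotypes were compared within an age on the deposited scale with limma 3.58.1 in R 4.3.3 over the 18041 probe sets with the highest variance, and ages after another quantile normalization. Correlations used Python 3.11.15 with numpy 2.4.6, scipy 1.17.1 and pandas 2.3.3, and figures used matplotlib 3.10.9. The fits were tested on simulated data with known changes. Alternatives covered the filter, the fold threshold, the normalization, array weights, the replicate number as a block, the control probe sets, other probe sets of a gene and leaving out each array. List genes were named when called, up to 4 per list and comparison, and the 10 genes most like the members by correlation. The number of arrays limits the precision. Array scans and the paper's qPCR and protein data were not analysed here.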

Additional observations from a re-analysis of the deposited data

How the results depend on the processing

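At P13, dropping wild type replicates 1 and 2 keeps 1 wild type array, so that fit decides nothing and is not counted here. The count of member probe sets called at P13 between α9−/− and wild type was 0 as reported, where 7.06% of all were. It was also 0 in the other alternatives (1.29% to 14.1% of all), apart from the 5 that follow. It was 7 with array weights, 5 with the replicate number as a block (where 7.27% of all probe sets were called), 5 with the poly-A controls as a block, 6 without replicate 1 of wild type (range 0 to 6 over single arrays left out) and 2 over the P13 arrays without poly-A controls (the 2 alternatives on these controls were chosen after seeing the data). At P3, P7 and P60 and for the interactions it was 0 in every alternative run. Of all probe sets, at most 0.155% were called at P3, 0.0333% at P7 and 0.283% at P60 in any of these alternatives. The labels do not say that a number marks a shared batch, and the deviations of same-numbered arrays correlated unevenly, from -0.70 to 0.52 at P3, from -0.083 to 0.63 for P7 arrays, from 0.0055 to 0.33 at P13 and from -0.096 to 0.49 for P60 arrays. In each age at least 1 pair was under 0.1, so the numbers were not taken to pair the pools. In 4 of the 12 pairs, replicate 1 at P13 among them, the wild type array that correlated best with an α9−/− array had its number. Apart from P13 the block moved no count by over 1.5 times. Brackets give the share of all probe sets called, lower from P3 to P7 and higher for the other steps. From P3 to P7 the count of 2 (1.65%) became 1 without the variance filter (0.627%). It was 0 with α9−/− alone (0.859%) and with wild type alone (0.244%), and 0 to 2 without 1 replicate number (0.36% to 2.44%). From P7 to P13 the count of 3 (3.25%) became 6 on values as deposited (5.37%) and 5 with arrays centred on their median (3.4%). It was 0 with α9−/− alone (2.12%) and 0 to 8 without 1 replicate number (2.53% to 4.93%). From P13 to P60 the count of 12 (3.99%) became 0 with wild type alone (3.59%). It was 2 to 13 without 1 replicate number (3.86% to 4.62%). From P3 to P60 the count of 11 (7.02%) became 4 with wild type alone (7.64%). It was 8 to 11 without 1 replicate number (6.93% to 7.69%). At P60 the genotype difference of Zic2 turned to 0.24 with array weights and to 0.20 without replicate 1 of wild type, which is also the array of P60 with low Gapdh 5′ signal, its range over single arrays left out was -0.69 to 0.20, and another probe set gave -0.15 for Pax6 and 0.10 for Barhl1. From P3 to P60 other Pax6 probe sets gave -0.035 and -0.15. On P3 and P7 arrays only, chosen after seeing the data, r with Gabra6 was 0.28 for Pcp2, 0.30 for Cbln1, 0.77 for Zic1, 0.64 for En2, 0.28 for Slc1a6, -0.049 for Pax6, 0.0060 for Neurod1 and 0.44 for Barhl1, with adjusted permutation p from 0.159 to 0.986. The cause of these changes was not tested. Probe sets near the low end of the scale, such as Gabra6 and En2 at P3 and P7, limit how small a signal could be told from background.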
